A study of Mus musculus with 5 samples.

Results

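Regions of 3 cardiac transcription factors were described around 4 ion channel genes of the heart: Hcn4 and Hcn2, which encode pacemaker channels, and Cacna1g and Cacna1c, which encode calcium channels. The members were all regions of the Tbx3, Nkx2-5 and Gata4 lists that overlap a window around each gene, made up of the gene with about 100 kb on each side in the mm9 build. There were 54 such regions among 21703 in all (0.249%), of which 32 were Tbx3, 19 Nkx2-5 and 3 Gata4 regions. The lists come from chromatin immunoprecipitation followed by sequencing (ChIP-seq) of adult whole heart on the FVB/N background. Tbx3 was profiled with the antibody A-20 in hearts of the genotype Myh6-MCM;CAG-CAT-TBX3. Nkx2-5 (antibody N-19) and Gata4 (antibody C-20) were profiled in wild-type hearts. Myh6-MCM is a drug-inducible Cre under the Myh6 promoter of cardiomyocytes, and CAG-CAT-TBX3 is a transgene from which Cre allows TBX3 to be made. The Tbx3 regions therefore describe hearts that carry this transgene, and the factor cannot be told apart from the genotype. Drug treatment and the level of TBX3 are not stated here. The series has 5 libraries, 1 for each factor and 2 others, a control and a p300 library, that were not analysed here. With 1 library per factor no difference between factors or genes has a replicate check, and no test was made over regions, which are not replicates. The files give positions without read numbers, so the depth behind each list is unknown. A region that was not listed may have been below the reach of its library.

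Pacemaker channels of the Hcn family open when the membrane is hyperpolarized and carry the inward current that starts each beat in the sinoatrial node. Hcn4 is the main one of the node, and Hcn2 is also found in working myocardium and in neurons. Cacna1g encodes a T-type calcium channel, which opens at low voltage and is known from the sinoatrial and atrioventricular nodes. Cacna1c encodes the pore of the cardiac L-type calcium channel, whose current triggers contraction of the working myocardium. Of the factors, Tbx3 belongs to the T-box family and holds chamber genes off in the conduction system. Nkx2-5, with a homeodomain, and Gata4, with zinc fingers, are known as activators of heart muscle genes.

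The 4 windows cover 1.57 Mb. They lie at 58.57 to 58.81 Mb of chromosome 9 for Hcn4 (240 kb), 79.07 to 79.30 Mb of chromosome 10 for Hcn2 (230 kb), 94.16 to 94.44 Mb of chromosome 11 for Cacna1g (280 kb) and 118.43 to 119.25 Mb of chromosome 6 for Cacna1c (820 kb). The RefSeq table, which is of the later build GRCm38, places each gene on the same chromosome. Its coordinates were not used for the regions. The part of a window more than 100 kb from both ends is called the middle below and stands for the gene, as the rule describes it to about 10 kb. A region less than about 10 kb from an end of the middle therefore cannot be placed inside or outside the gene. The windows may also hold neighbours of the channel gene, which were not placed on mm9. In the order of the RefSeq table the 3 nearest on each side are Cd276, Nptn and Rec114, and Neo1, Adpgk and Bbs4, for Hcn4. They are Cdc34, Gzmm and Bsg, and Polrmt, Fgf22 and Rnf126, for Hcn2. For Cacna1g they are Luc7l3, Ankrd40 and Abcc3, and Spata20, Epn3 and Mycbpap. For Cacna1c they are Zfp248, Zfp9 and Ankrd26, and Dcp1b, Cacna2d4 and Lrtm2, of which Cacna2d4 encodes an auxiliary subunit of calcium channels. A region in a window is not thereby assigned to the channel gene.

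The sequence just before the start of a gene is shown for the 3 members that have one in the RefSeq promoter table, Hcn4, Hcn2 and Cacna1c. Transcription runs towards higher coordinates in Hcn4 and Hcn2 and towards lower ones in Cacna1c, per RefSeq. The 250 bases before the start, read 5′ to 3′ on the strand of the gene, are from RefSeq of GRCm38. They are chr9:58822699-58822948 (plus strand) for Hcn4, chr10:79716384-79716633 (plus strand) for Hcn2 and chr6:119196410-119196659 (minus strand) for Cacna1c. For Cacna1c, the start with the highest coordinate of 3 in the table is shown, and the other starts lie 87.9 and 438.4 kb below it within GRCm38. Positions in this build cannot be set against the mm9 regions, so it was not tested whether a region covers these bases.
Hcn4: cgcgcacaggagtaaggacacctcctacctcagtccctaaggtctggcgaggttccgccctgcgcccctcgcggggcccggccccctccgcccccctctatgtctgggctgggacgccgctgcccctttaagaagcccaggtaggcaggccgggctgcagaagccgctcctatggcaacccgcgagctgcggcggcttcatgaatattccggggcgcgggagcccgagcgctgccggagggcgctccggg
Hcn2: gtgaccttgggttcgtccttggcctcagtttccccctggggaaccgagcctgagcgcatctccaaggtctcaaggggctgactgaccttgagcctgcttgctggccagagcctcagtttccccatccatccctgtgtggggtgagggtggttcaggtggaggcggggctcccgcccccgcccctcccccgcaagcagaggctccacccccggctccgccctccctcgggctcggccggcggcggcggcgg
Cacna1c: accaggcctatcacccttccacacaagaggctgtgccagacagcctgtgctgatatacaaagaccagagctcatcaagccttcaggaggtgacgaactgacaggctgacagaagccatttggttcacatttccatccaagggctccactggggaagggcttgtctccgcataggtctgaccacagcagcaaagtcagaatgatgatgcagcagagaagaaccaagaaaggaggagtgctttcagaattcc
No letters are in capitals because none of the 3 motifs searched was found. These were GGTGTGA, a core bound by T-box factors, TNAAGTG, bound by Nkx2-5, and GATAA, bound by Gata factors, each on both strands. They were searched in the 300-base promoters of the table, which add 50 bases after the start, and the 5 promoters of Hcn4, Hcn2 and Cacna1c held none of them. Of all 32851 promoters in the table, 3.98% held GGTGTGA, 11.5% held TNAAGTG and 25.4% held GATAA. GC content was 71.7% in the Hcn4 promoter, 72.3% in the Hcn2 promoter and 51.3%, 81.3% and 51.3% in those of Cacna1c, against a median of 52.7% over all promoters.

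Regions were most dense around Hcn2 and least dense around Hcn4. The Hcn2 window held 14 regions, or 6.09 per 100 kb (exact Poisson 95% interval 3.33 to 10.2). Cacna1c held 27 regions (3.29 per 100 kb, 2.17 to 4.79), Cacna1g 9 (3.21 per 100 kb, 1.47 to 6.10) and Hcn4 4 (1.67 per 100 kb, 0.454 to 4.27). The intervals of all 4 windows overlap one another, those of Hcn2 and Hcn4 included, so they do not separate this order. They cover counting error only. The autosomes outside the 4 windows held 0.899 regions per 100 kb. Relative to the autosomes without its own window, the Hcn2 window was 6.76 times as dense (interval 3.70 to 11.3), the Cacna1c window 3.66 times (2.41 to 5.32), the Cacna1g window 3.57 times (1.63 to 6.77) and the Hcn4 window 1.85 times (0.504 to 4.74). The rest of the same chromosome held 0.831 regions per 100 kb for Hcn2, 0.702 for Cacna1c, 1.44 for Cacna1g and 1.00 for Hcn4. Against its own chromosome Cacna1g thus stood out less than Cacna1c, and its interval began at 1.47, just above 1.44. The rest of the autosomes includes long stretches without genes, whereas each window was centred on a gene.

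The order of the genes by count per 100 kb differed between Tbx3 and Nkx2-5. Within each of these lists the intervals of all genes overlapped, so neither order was separated from another. Tbx3 had 9 regions around Hcn2 (3.91 per 100 kb, exact Poisson 95% interval 1.79 to 7.43), 17 around Cacna1c (2.07, 1.21 to 3.32), 3 around Hcn4 (1.25, 0.258 to 3.65) and 3 around Cacna1g (1.07, 0.221 to 3.13), against 0.551 per 100 kb in the rest of the autosomes. Nkx2-5 had 5 around Hcn2 (2.17 per 100 kb, 0.706 to 5.07), 6 around Cacna1g (2.14, 0.786 to 4.66), 7 around Cacna1c (0.854, 0.343 to 1.76) and 1 around Hcn4 (0.417, 0.0105 to 2.32), against 0.277 in the rest of the autosomes. Around Cacna1g Nkx2-5 regions outnumbered Tbx3 regions, although the Tbx3 list is the longer one. The rest of its chromosome held 0.910 Tbx3 regions per 100 kb, close to the 1.07 of the window, and 0.432 Nkx2-5 regions. The 3 Tbx3 regions there became 1 with 50 kb less at each end of the window and 5 with 50 kb more. With the wider 50% of each list, or with equal list sizes, Hcn4 also had more Nkx2-5 regions (1) than Tbx3 regions (0). Gata4 had 3 regions, all around Cacna1c (0.366 per 100 kb, 0.0754 to 1.07), against 0.0727 in the rest of the autosomes. With no Gata4 region in a window, a density of up to 1.25 per 100 kb for Hcn4, 1.30 for Hcn2 and 1.07 for Cacna1g cannot be told from 0, from 3 counts per window. These limits lie above the Gata4 density around Cacna1c, so the windows do not separate the genes in this respect.

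**Figure D1:**
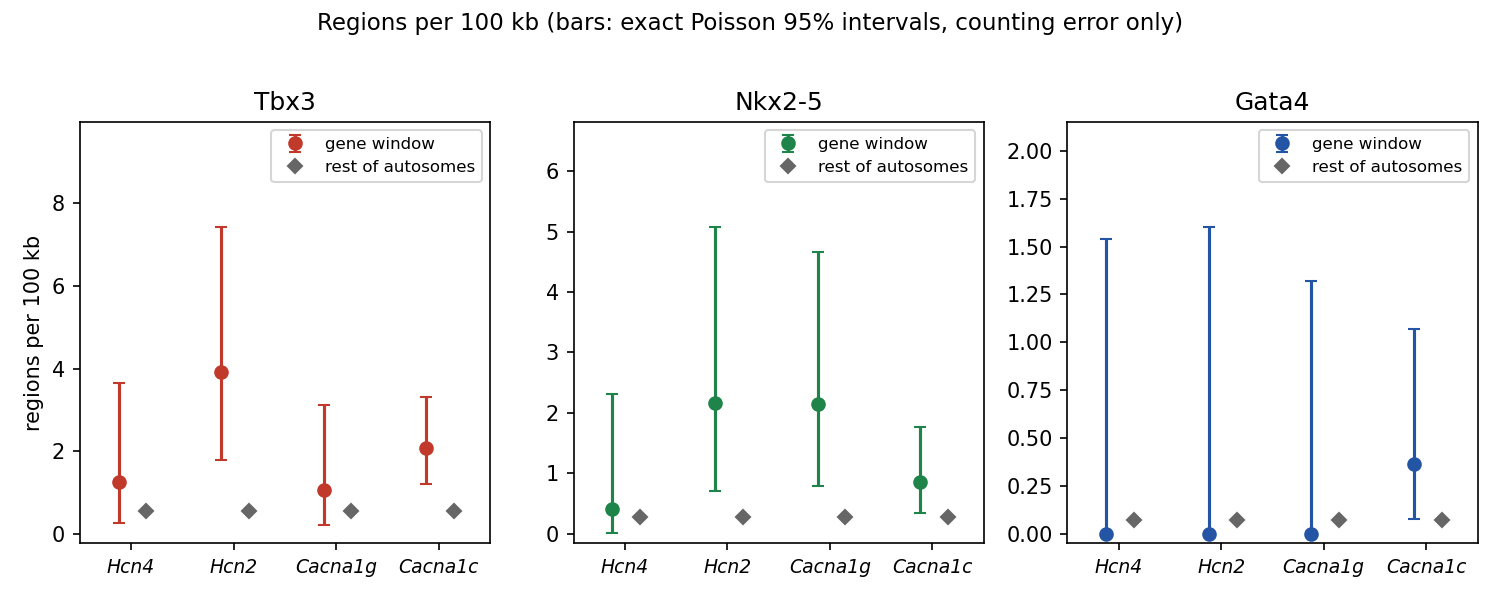
Regions per 100 kb in the 4 gene windows (dots, with exact Poisson 95% intervals) and in the rest of the autosomes (diamonds), in 1 panel per factor with its own linear scale. The interval of Tbx3 lies above the rest of the autosomes for Hcn2 and Cacna1c, and that of Nkx2-5 for Hcn2, Cacna1g and Cacna1c. That of Gata4 does so for Cacna1c, where its lower end of 0.0754 is close to the 0.0727 of the autosomes. Intervals cover counting error only and take regions as independent, although regions lay in groups. Of autosomal windows as long as that of Cacna1c, 6.74% held as many Tbx3 regions or more, 10.3% as many Nkx2-5 and 6.05% as many Gata4 regions.

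To read these counts against the genome, the autosomes were divided into fixed windows of the length of each member window. Of 10389 fixed windows of 230 kb, 2.14% held 14 or more regions, as many as Hcn2. For Tbx3 alone 2.41% held 9 or more and for Nkx2-5 alone 2.19% held 5 or more. Of 8532 fixed windows of 280 kb, 8.57% held 9 or more regions, as many as Cacna1g, while 1.78% held 6 or more Nkx2-5 regions and 21.6% held 3 or more Tbx3 regions. The count around Cacna1g was thus reached by few fixed windows for Nkx2-5 and by many for Tbx3. Of 2908 fixed windows of 820 kb, 5.81% held 27 or more regions, as many as Cacna1c. For the single lists around Cacna1c the shares were 6.74% for 17 or more Tbx3 regions, 10.3% for 7 or more Nkx2-5 regions and 6.05% for 3 or more Gata4 regions. Of 9958 fixed windows of 240 kb, 20.9% held 4 or more regions, as many as Hcn4, with 18.7% for 3 or more Tbx3 and 32.1% for 1 or more Nkx2-5 regions. The Hcn4 count was thus reached by a larger share of fixed windows than that of any other member, although the median fixed window of 240 kb held 0 regions. The interval of the Hcn4 density, 0.454 to 4.27 per 100 kb, included the 0.901 of the rest of the autosomes. Windows without a Gata4 region were the rule, at 87.1%, 87.5% and 85.2% of the fixed windows of the lengths of Hcn4, Hcn2 and Cacna1g. Among fixed windows with at least 1 region, a comparison added after the data were seen, the shares were 4.57% for Hcn2, 8.0% for Cacna1c, 16.9% for Cacna1g and 43.8% for Hcn4.

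**Figure D2:**
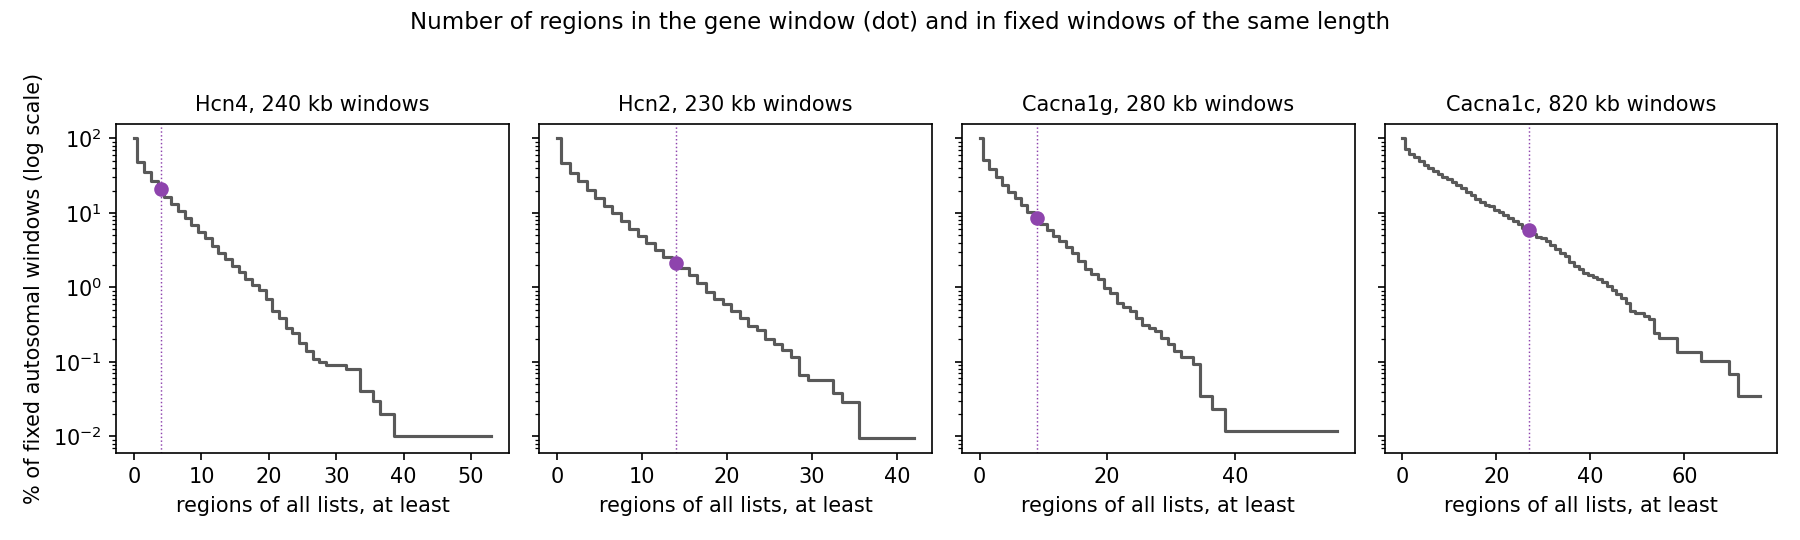
Share of fixed autosomal windows (log scale) that hold at least the number of regions on the horizontal axis, all 3 lists counted, for windows of the length of each gene window. The dot marks the gene window itself: 20.9% of fixed windows held as many regions as Hcn4, 2.14% as many as Hcn2, 8.57% as many as Cacna1g and 5.81% as many as Cacna1c.

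Around Hcn4, the gene of the main pacemaker channel, 4 regions lay apart from one another. A Tbx3 region of 119 bp at 58670866 to 58670984 had its centre 0.9 kb inside the low end of the middle, the side where transcription begins. A second Tbx3 region of 130 bp at 58686425 to 58686554 was also in the middle, 16.5 kb from the same end. The widest Tbx3 region, of 142 bp at 58737933 to 58738074, was beyond the middle on the high side. The single Nkx2-5 region, of 246 bp at 58665634 to 58665879, lay 4.2 kb below the low end and 4.99 kb from the nearest Tbx3 region. In the Nkx2-5 list 8.58% of regions were at least that wide, whereas the shares for the 3 Tbx3 regions were 77.0%, 65.5% and 54.4% of the Tbx3 list. No position around Hcn4 was shared between lists.

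Around Hcn2, which encodes a pacemaker channel that is also present in working myocardium, most regions stood on one side of the gene. A stretch of 26.4 kb at 79144410 to 79170804 held 11 of the 14 regions, 6 of Tbx3 and all 5 of Nkx2-5. Its last region had its centre 0.7 kb inside the low end of the middle, and the centre of the stretch lay 12.4 kb below that end, towards Bsg, the nearest lower neighbour in the RefSeq order. Regions of the 2 factors were interspersed along it, and the 3 Nkx2-5 regions that did not overlap Tbx3 had a Tbx3 region within 1.61 to 2.56 kb. Over the whole list, 37.1% of the 4302 Nkx2-5 regions without such an overlap had a Tbx3 region within 10 kb. The median distance there was 21.05 kb. The stretch was singled out for its many closely spaced regions, grouped so that neighbours stood at most 10 kb apart. Short distances inside it were thus in large part set by that choice. The whole-list values therefore do not show whether the spacing is particular to Hcn2. The other 3 Tbx3 regions were on the high side, the first 459 bp wide at 79229574 to 79230032 and a pair 268 bp apart at 79242817 to 79243496. The middle itself held 2 Tbx3 regions, at 79170051 to 79170175 and 79170607 to 79170804. They were 0.1 and 0.7 kb from its low end, too close to place them inside or outside the gene. Tbx3 regions around Hcn2 were wide, with a median of 220 bp against 147 bp for the whole list. The widest, of 495 bp at 79144410 to 79144904, and the one of 459 bp were among the 1.33% of Tbx3 regions of 400 bp or more. The Nkx2-5 regions had a median of 116 bp against 142 bp for the whole list, and the widest was 237 bp, at 79149550 to 79149786.

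Around Cacna1g, the T-type calcium channel gene, Nkx2-5 regions were spread over all 3 parts of the window. The middle held 2, of 169 bp at 94311353 to 94311521 and of 409 bp at 94312459 to 94312867, which were 937 bp apart. The second of these was the widest Nkx2-5 member, and 0.835% of Nkx2-5 regions were 400 bp wide or more. Nkx2-5 regions of 107 bp at 94343387 to 94343493 and of 301 bp at 94356792 to 94357092 followed 3.4 kb and 16.9 kb above the high end of the middle. A further one of 137 bp at 94202386 to 94202522 lay below the middle. The Tbx3 regions at 94189190 to 94189317 (128 bp) and 94335625 to 94335747 (123 bp) were narrow and overlapped no other list. The second was 4.3 kb inside the high end of the middle and 7.64 kb from the nearest Nkx2-5 region. Of the 5 Nkx2-5 regions that did not overlap Tbx3, 1 had a Tbx3 region within 10 kb, and the median distance was 21.04 kb, close to that of the whole list. The corresponding median was 2.40 kb for 3 regions around Hcn2 and 4.55 kb for 5 around Cacna1c, in windows with more Tbx3 regions. The 1 such region around Hcn4, which like Cacna1g had 3 Tbx3 regions, was 4.99 kb away. Whether these distances follow the number of Tbx3 regions was not tested.

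Around Cacna1c, the L-type calcium channel gene, 26 of 27 regions fell in the middle, which makes up 620 of the 820 kb of the window. The remaining one, of Nkx2-5 at 119151717 to 119151833, was 1.8 kb beyond the high end of the middle. Regions less than about 10 kb from that end cannot be placed inside or outside the gene. The high end is the side of the highest of the 3 starts in the RefSeq table, and the others lie inside the gene. The middle held 4.19 regions per 100 kb. They were gathered towards that end. Its upper 310 kb held 12 Tbx3, 5 Nkx2-5 and 3 Gata4 regions (6.45 per 100 kb), against 5 Tbx3, 1 Nkx2-5 and no Gata4 regions in its lower 310 kb (1.94 per 100 kb). This division was chosen after the positions were seen. A stretch of 195.9 kb without a region, at 118798081 to 118994023, lay between the groups. All 3 Gata4 regions were within 60.3 kb of the high end of the middle, and each overlapped an Nkx2-5 region. The widest Tbx3 region, of 378 bp at 119125375 to 119125752, was 24.4 kb from that end and overlapped neither of the other lists. The other 14 Tbx3 regions outside the shared places were 105 to 224 bp wide. The Tbx3 list alone accounted for 7 regions in a row from 118995688 to 119058472, with no Nkx2-5 or Gata4 region between them.

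**Figure D3:**
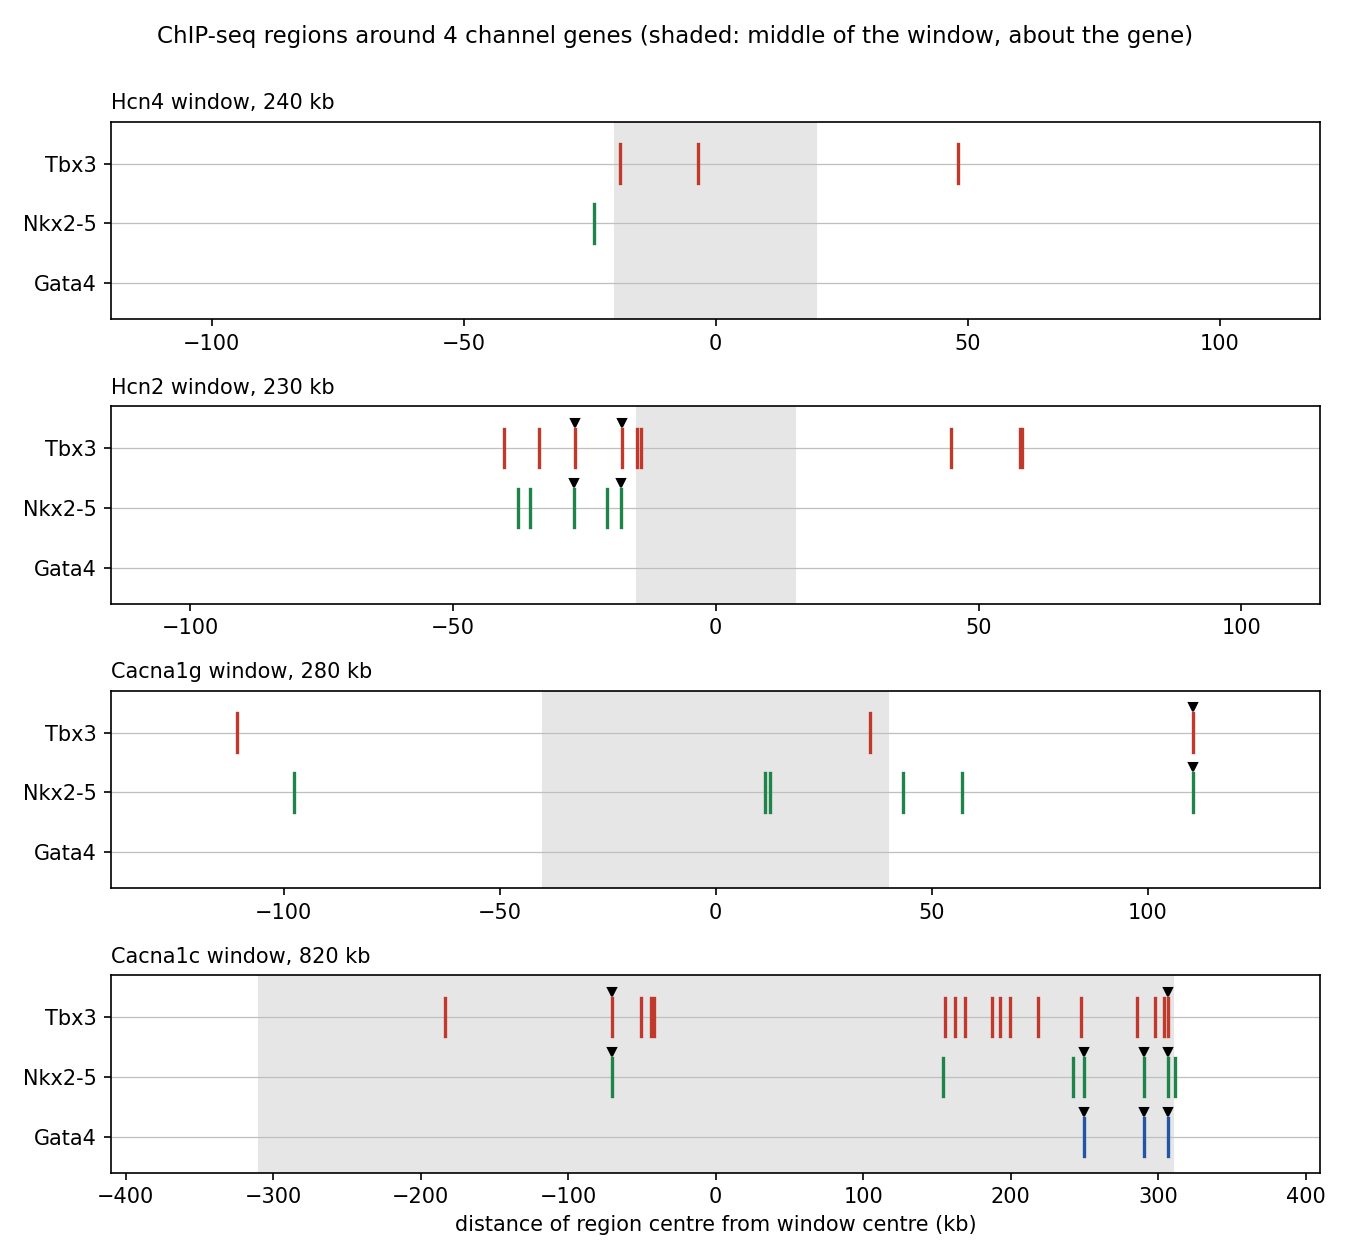
Centres of the Tbx3, Nkx2-5 and Gata4 regions in each window, as distance from the window's centre in kb, with the middle shaded. Lines have a fixed thickness and triangles mark regions that overlap another list: 2 places around Hcn2, 1 around Cacna1g, 4 around Cacna1c and none around Hcn4.

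Positions shared by at least 2 lists numbered 7 over the 4 windows, or 0.446 per 100 kb, and they took in 15 of the 54 regions. Of the 19 Nkx2-5 regions, 5 overlapped Tbx3 by at least 1 bp (26.3%, exact Clopper-Pearson 95% interval 9.15 to 51.2%), against 35.8% of the whole Nkx2-5 list. Of the 32 Tbx3 regions, 5 overlapped Nkx2-5 (15.6%, 5.28 to 32.8%), against 18.3% of the whole Tbx3 list. These shares are near the background. All 3 Gata4 regions overlapped Nkx2-5 (100%, 29.2 to 100%), against 33.4% of the whole Gata4 list, and 1 overlapped Tbx3 (33.3%, 0.840 to 90.6%), against 21.3%. Of the Nkx2-5 regions 3 overlapped Gata4 (15.8%, 3.38 to 39.6%), against 8.90% of the list, and of the Tbx3 regions 1 did (3.12%, 0.0791 to 16.2%), against 2.92%. Each interval includes the share of its whole list except that of Nkx2-5 around Cacna1c with Gata4. There 3 of 7 overlapped (42.9%, 9.90 to 81.6%), with the lower end close to the 8.90% of the list. These are the same 3 pairs as those of the Gata4 regions, in the only window that held any. Asking that 50% of the shorter region be shared left 2 Gata4 regions shared with Nkx2-5. The interval covers counting error alone for a single library.

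The place with all 3 factors was at Cacna1c, 3.3 kb inside the high end of the middle. There Tbx3 lay at 119146555 to 119146751, Nkx2-5 at 119146493 to 119146779 and Gata4 at 119146732 to 119146833, with 20 bases common to all 3. The Gata4 region, at 102 bp, was among the narrowest of its list, of which 96.8% was at least as wide. Over the whole list 205 Gata4 regions (11.7%) overlapped both other factors. At 119130312 to 119130477 a Gata4 region of 166 bp almost coincided with an Nkx2-5 region of 173 bp at 119130302 to 119130474, with centres 6.5 bp apart. At 119089534 to 119089857 a Gata4 region of 324 bp contained the whole Nkx2-5 region at 119089664 to 119089831, and a Tbx3 region stood 1531 bp away. At the remaining place of Cacna1c, in the lower part of the gene, Tbx3 at 118769770 to 118769886 and Nkx2-5 at 118769829 to 118769970 shared 58 bases.

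The other shared places were pairs of Tbx3 and Nkx2-5 outside the middle. At Hcn2, Tbx3 at 79158157 to 79158376 and Nkx2-5 at 79158070 to 79158175 shared 19 bases, and Tbx3 at 79167041 to 79167329 and Nkx2-5 at 79167009 to 79167124 shared 84. The second of these pairs stood 2.8 kb below the low end of the middle. At Cacna1g, Tbx3 at 94410367 to 94410597 and Nkx2-5 at 94410565 to 94410715 shared 33 bases, 70.5 kb above the high end of the middle. Centres of the 5 overlapping Nkx2-5 and Tbx3 regions were a median of 118.5 bp apart (range 17 to 158 bp), the lowest value being that of the place with all 3 factors. Over the whole lists the median was 37.5 bp and the interquartile range 16 to 70.5 bp. For the 3 Gata4 regions and Nkx2-5 the median was 52 bp (6.5 to 146.5 bp), against 44 bp over the whole lists.

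**Figure D4:**
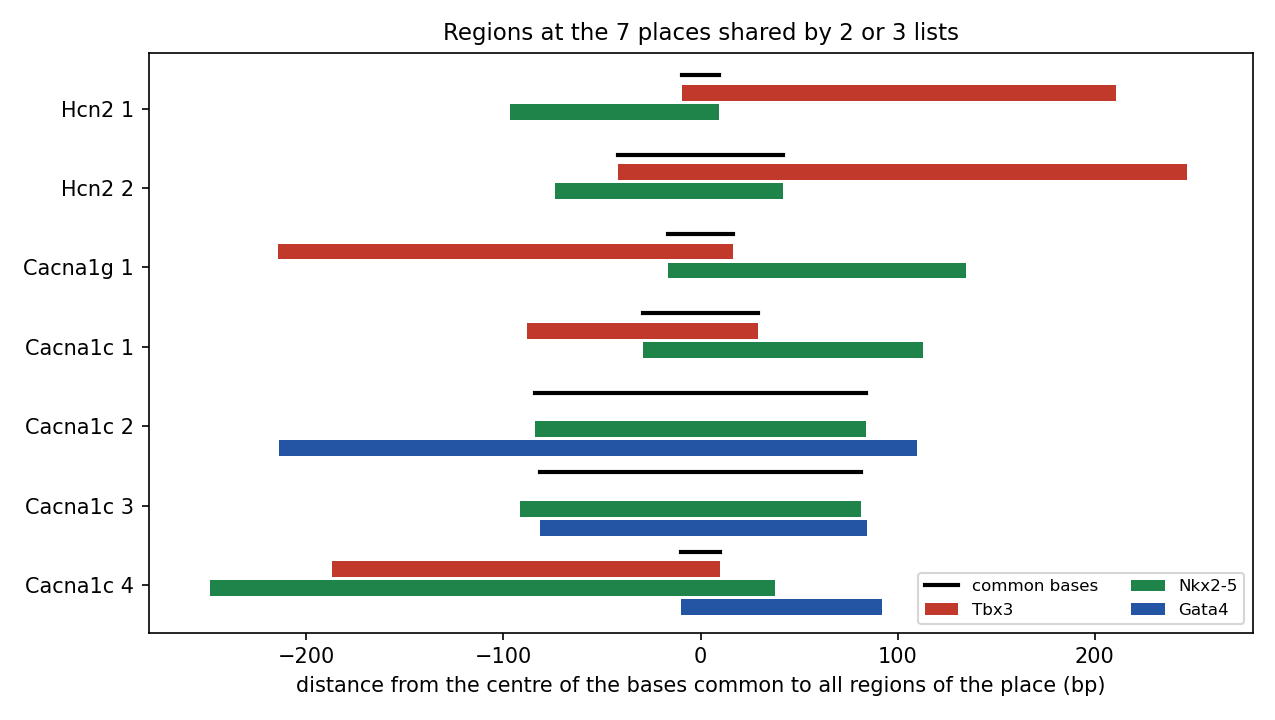
Extent of each region at the 7 shared places, in bp from the centre of the bases common to all regions of the place (black line), numbered along the chromosome within each gene. Tbx3 and Nkx2-5 overlap by 19 to 84 bases at the first 4 places, while Gata4 and Nkx2-5 share 168 and 163 bases at the places numbered 2 and 3 of Cacna1c.

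When regions of all lists were joined across gaps of 10 kb or less, they formed 20 domains, of which 8 were single regions and 8 held at least 2 lists (28.5% of the 12041 autosomal domains did so). The largest by number was that of Hcn2, with 11 regions, a size reached by 0.274% of autosomal domains. The next was at Cacna1c, 26.5 kb long at 119125375 to 119151833, made up of 4 regions of Tbx3, 3 of Nkx2-5 and 2 of Gata4. Domains of 9 or more regions made up 0.706% of the autosomal ones. It was centred 11.4 kb below the high end of the middle. A second Cacna1c domain, of 7.3 kb at 119082546 to 119089857, was made up of 1 Tbx3 region, 2 of Nkx2-5 and 1 of Gata4. These were the 2 domains with all 3 factors, and 3.99% of autosomal domains were of that kind. Around Cacna1g no domain held more than 2 regions. The Hcn4 window had 1 domain of 2 regions, 5.4 kb long at 58665634 to 58670984, in which the Nkx2-5 and the first Tbx3 region lay on either side of the low end of the middle. The largest domains of Hcn2 and Cacna1c had similar lengths, 26.4 and 26.5 kb. By the RefSeq strand, that of Hcn2 lay at the side of the gene where transcription begins, and that of Cacna1c at the side of its highest start. Gene starts and neighbours, such as Bsg at Hcn2, were not placed on mm9, so neither domain was assigned to a start. The sizes of these domains depend on the gap chosen. With a gap of 2 kb the Hcn2 window held 9 domains instead of 3, and the Cacna1c window 19 instead of 8.

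Over the 4 windows the regions were about as wide as those of the whole lists. Median width was 137.5 bp for Tbx3 (105 to 495 bp) against 147 bp for the list, 151 bp for Nkx2-5 (104 to 409 bp) against 142 bp, and 166 bp for Gata4 (102 to 324 bp) against 149 bp. The regions nearest to the window ends show how far the counts depend on them. Tbx3 regions at 118429213 to 118429349 and 79303722 to 79303823 lay just outside, 0.7 kb below the Cacna1c window and 3.8 kb above the Hcn2 window, and another at 94147623 to 94147741 lay 12.3 kb below the Cacna1g window. Just inside, the nearest region was 226.2 kb from the low end for Cacna1c, 56.6 kb from the high end for Hcn2 and 29.3 kb from the low end for Cacna1g. For Hcn4 the nearest regions were 72.0 kb inside and 73.9 kb outside the high end.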

How the data were processed

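The deposited files hold 1 row per region with chromosome, start and end, in no unit other than position on mm9, per the submitters' processing notes. The libraries were made with an Illumina kit, per the labels' protocols. Which aligner, peak caller, threshold and depth lie behind them, and how the control was used, is not given in the sources used here. Samples were grouped by target from their titles. Starts were read as counted from 0 and are printed counted from 1. Counts, overlaps (at least 1 bp), domains (gaps of up to 10 kb) and fixed windows were computed with Python 3.11.15, numpy 2.4.6, scipy 1.17.1 and pandas 2.3.3, and checked on simulated lists with planted answers. Densities outside the windows use the span of the lists on each autosome. Poisson and Clopper-Pearson intervals are exact at 95% and cover counting error only.

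The members, windows and alternatives were chosen with earlier results of these data known. Positions were to be printed for regions shared between lists, all Gata4 regions and the widest region of each list in each window. Other positions, among them all of Hcn4 and Cacna1g and the domain ends, were chosen after they had been seen. Promoters were matched by symbol for 3 of the 4 genes. Without an mm9 genome or annotation, region sequences, exact gene ends and windows of related channel genes were not used here, nor were the control and p300 libraries.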

Additional observations from a re-analysis of the deposited data

How the results depend on the processing

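Of 55 alternatives for the summary counts, 35 stayed within 1.5 times the value reported or, for shares of fixed windows, within its interval. Some of these outcomes were fixed by construction. Equal list sizes left the Gata4 list, the shortest, unchanged, and leaving out fixed windows without a region can only raise a share. The 35 is therefore not a count of independent checks. With the wider 50% of each list the windows held 13 Tbx3 and 12 Nkx2-5 regions, 4 shared places, 2 Nkx2-5 regions shared with Tbx3 and 0 Gata4 regions shared with Tbx3. With equal list sizes these were 5, 5, 1, 0 and 0, and 1 Gata4 region was shared with Nkx2-5, where fewer regions were counted by construction. Asking that 50% of the shorter region be shared left 4 shared places, 2 Nkx2-5 and 0 Gata4 regions shared with Tbx3. A gap of 2 kb gave 39 domains and a gap of 50 kb gave 10. Among fixed windows with at least 1 region, an alternative chosen after seeing the data, the shares were 43.8% for Hcn4, 4.57% for Hcn2, 16.9% for Cacna1g and 8.0% for Cacna1c. Of 116 alternatives for single genes, 93 stayed within 1.5 times, where a count of 0 that stayed 0 was taken as unchanged. Among these were the Gata4 counts of Hcn4, Hcn2 and Cacna1g and the shared places of Hcn4. Settings that only remove or join regions could not raise such counts. Hcn2 was the densest window in all 8 settings for the windows, the main one included. Hcn4 was the least dense in all of them except with about 50 kb on each side of the gene, where it had 2.86 regions per 100 kb and Cacna1g 2.78. Cacna1g passed Cacna1c with the wider 50% of each list (1.79 against 1.59) and with equal list sizes (0.714 against 0.610). With 1 library per factor there were no replicates to leave out. No paired analysis was possible because the result comes from no test. Depth is unknown, so counts cannot be weighed by it.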
